A study of Mus musculus with 6 samples.

Results

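The genes described here are Parp9, Parp10, Parp12 and Parp14, 4 ADP-ribosyltransferase genes linked to interferon, with Dtx3l, the ubiquitin ligase gene that is the partner of Parp9, and, beside them, the constitutive family members Parp1 and Parp2. They were taken by symbol from a table of 23366 genes, as a set proposed with earlier results of these data known. All 7 had a row of their own, and all 7 passed the minimum of 0.5 FPKM (fragments per kilobase of transcript, scaled to the size of the library) on average over the mice, which left 14385 genes to test. Parp1, Parp2, Parp9, Parp10, Parp12, Parp14 and Dtx3l were measured in cortical RNA of 6 C57BL/6 mice by RNA-seq. The 3 depleted mice, A4, A5 and A6, carried CX3CR1-CreERT2+/- and iDTR+/-, so that tamoxifen made cells with an active Cx3cr1 promoter, microglia above all, sensitive to diphtheria toxin, and their tissue was taken on day 10 after depletion. The 3 control mice, A1, A2 and A3, were littermates with CX3CR1-CreERT2+/- alone that were given tamoxifen as well, so that the Cre allele and the tamoxifen were shared by every mouse. Whether the controls received the toxin and how old the mice were is not given in the sources used here. The study describes microglia as having returned by day 10, so the cortex was not one without microglia at this time.

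ADP-ribosyltransferases move ADP-ribose from NAD+ onto proteins. PARP1 and PARP2 build chains of it at DNA breaks in most cells, whereas PARP10, PARP12 and PARP14 attach single units, and PARP9 works in a complex with DTX3L. The genes of this second set are induced by interferon through transcription factors that include STAT2 and IRF9 in many cell types, and their products act in antiviral defence and in the control of STAT signalling.

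Some facts of the libraries touch every value below. The study states one read coverage for all samples and no depth for single mice. The depth behind the FPKM values was therefore estimated indirectly, at 11.3 to 20.5 M fragments in 5 mice. In A5 it was 3.54 M, well below the stated coverage, and A5 had 7144 genes at 0 against 5834 to 6849 in the others. For A5, 81.6% of the low values used lay within 0.15 of a whole number of fragments at this depth. At 2 times this depth 75.2% did, but only 3.19% of those whole numbers were odd, against 74.5% at the estimated depth. Xist, transcribed from the inactive X chromosome, was at 4.74 FPKM in A3 and at 30.9 to 46.7 FPKM in the other mice, and the summed FPKM of the Y-linked genes Ddx3y, Eif2s3y, Kdm5d and Uty was 5.56 in A4 and at most 0.16 in the others. The study states that mice were sex-matched, and A3 and A4 stand apart from the rest in these transcripts. Summed FPKM of 10 microglial markers was 109.0 to 132.5 in the controls and 115.6 to 150.9 in the depleted mice, highest in A4. In bulk tissue, fewer cells of a type and less RNA per cell cannot be told apart. Values of single mice are given in the order of their names. P-values measure the spread between these mice only, and the labels give no litter or batch.

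The 5 interferon-linked genes were all higher on average in the depleted mice, and none of them passed limma's test at an adjusted p of 0.1. In the same fit 4 genes, or 0.0278% of all genes tested, passed. Of the 5 genes, 3 (Parp9, Parp14 and Parp12) had an unadjusted p under 0.05 with a higher level after depletion, against 4.79% of all genes tested. The same 3 genes had every depleted mouse above every control mouse, against 8.21% of all genes tested. A4 was the highest depleted mouse for 5 of 5 genes, at 2.70 to 9.45 times the control mean. A5 stood at 1.01 to 2.84 times and A6 at 1.06 to 3.29 times the control mean. The median log2 fold change of the 5 genes, on the log2(FPKM + 1) scale used throughout, was 0.74, and 0.48 without A4, beside -0.0085 over all genes tested. This scale understates the change of genes near 1 FPKM, so ratios of mean FPKM are given as well.

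**Figure D1:**
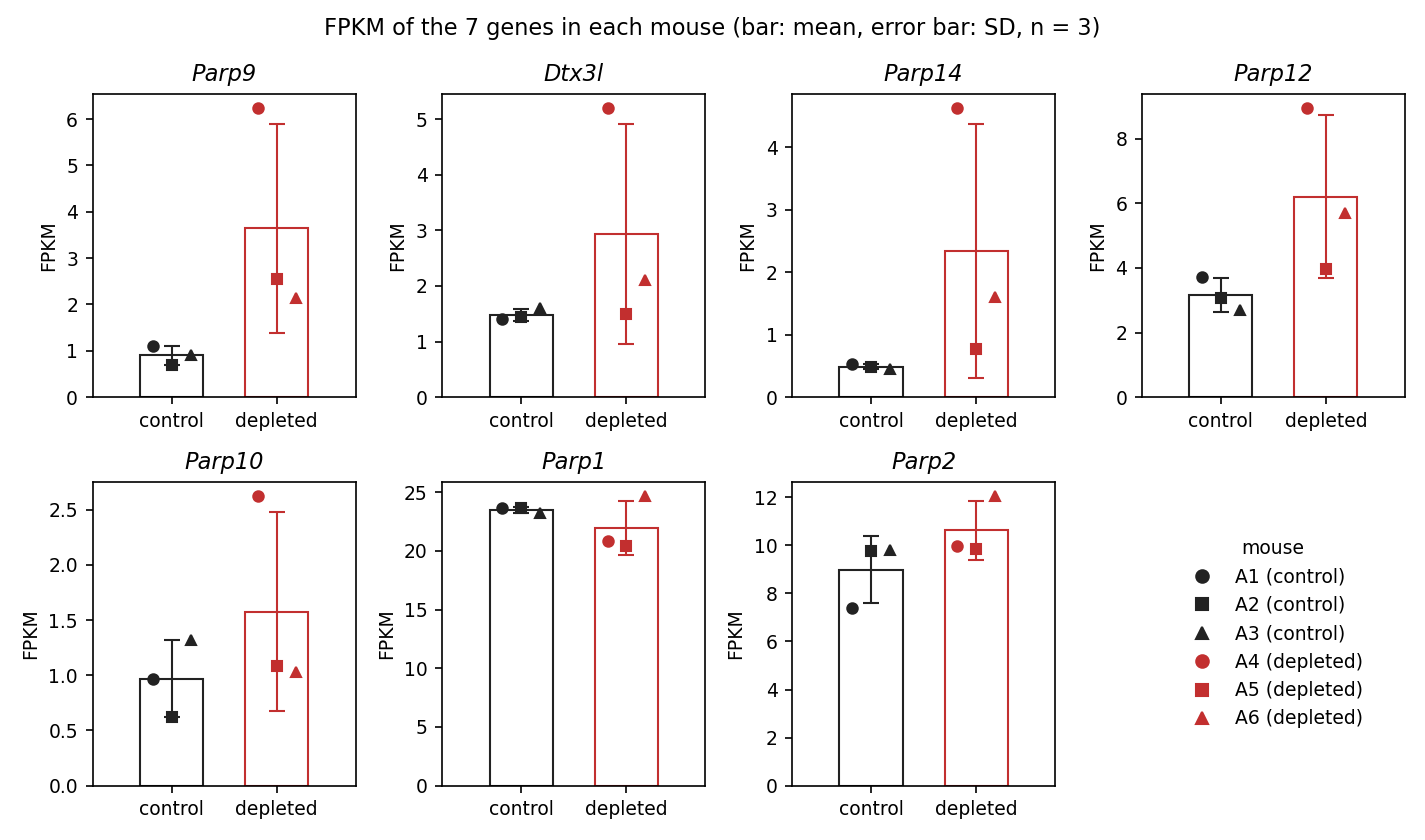
FPKM (vertical axes, each from 0) of the 7 genes in each mouse, with the mean as a bar and the SD as an error bar (n = 3 mice a group). The depleted mice lie apart from the controls for Parp9, Parp14 and Parp12, with A4 highest, and by 0.02 FPKM for Parp2, and the groups overlap for Dtx3l, Parp10 and Parp1.

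Parp9 and Dtx3l lie side by side on opposite strands of chromosome 16. PARP9 has macrodomains that bind ADP-ribose and has little transferase activity of its own, and DTX3L is a RING-type ubiquitin ligase of the Deltex family. Parp9 was at 1.10, 0.69 and 0.91 FPKM in the controls and at 6.24, 2.56 and 2.14 FPKM in the depleted mice. All depleted mice were above all controls, and even without A4 the lower of the remaining pair, A6, was at 2.38 times the control mean. The means were 0.900 ± 0.205 and 3.65 ± 2.26 FPKM (SD, n = 3 each), a ratio of 4.05. The log2 fold change was 1.19 (95% interval 0.52 to 1.86, SE 0.29; limma unadjusted p = 0.0033, adjusted p = 0.370), and 0.82 without A4 (limma adjusted p = 0.167). The exact two-sided permutation p was 0.1, the smallest that 3 mice against 3 can give.

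Dtx3l was at 1.40, 1.44 and 1.60 FPKM in the controls and at 5.20, 1.5 and 2.10 FPKM in the depleted mice. The groups overlapped, since A5 lay below A3, and the depleted mean of 2.93 ± 1.99 FPKM against 1.48 ± 0.106 FPKM rested largely on A4. The log2 fold change was 0.55 (95% interval -0.13 to 1.24, SE 0.30; limma adjusted p = 0.550; exact permutation p = 0.2), and 0.17 without A4. The level in A5 stood for about 28 fragments, with a 95% Poisson interval of 0.99 to 2.15 FPKM that covers the control mice and A6, so a difference of that size was not detectable at this depth. For Parp9, about 32 fragments in A5 gave an interval of 1.74 to 3.60 FPKM, above the control mice. These intervals cover counting error only.

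Both being per length, Parp9 and Dtx3l can be set against each other within a mouse. Parp9 stood at 0.786, 0.479 and 0.569 times Dtx3l in A1, A2 and A3 and at 1.20, 1.71 and 1.02 times Dtx3l in A4, A5 and A6. Thus Dtx3l was the higher of the pair in each control mouse and Parp9 in each depleted mouse. The mean log2 ratio was -0.74 ± 0.36 in the controls and 0.35 ± 0.38 in the depleted mice (SD, n = 3 each), a difference of 1.09 (exact two-sided permutation p = 0.1, the smallest possible). Leaving out each mouse in turn gave differences of 0.89 to 1.29. Above the control mean, Parp9 gained 5.34, 1.66 and 1.24 FPKM in the depleted mice, whereas Dtx3l gained 3.72, 0.02 and 0.62 FPKM. In the GENCODE M21 annotation (GRCm38) the exons of both genes overlap over 458 bases, 9.4% of the exonic bases of Parp9 and 8% of those of Dtx3l. Whether strand was used in counting is not stated, so reads from the overlap cannot be told apart, and both levels are uncertain to that extent.

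**Figure D2:**
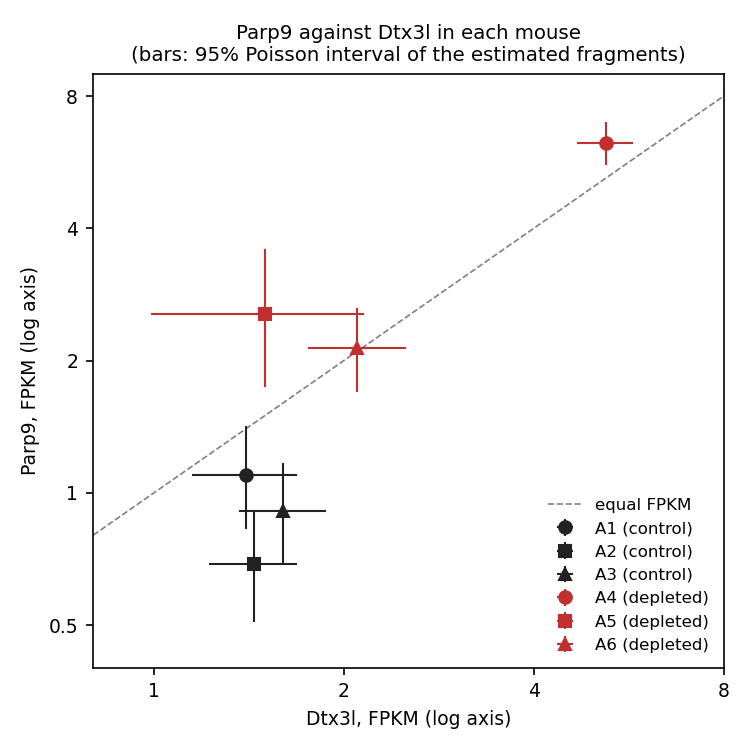
FPKM of Parp9 (vertical, log axis) against Dtx3l (horizontal, log axis) in each mouse, with 95% Poisson intervals of the estimated fragments as bars and a dashed line at equal FPKM. The 3 controls lie below the line and the 3 depleted mice above it, A6 close to it at a ratio of 1.02, and A4 is far from the other mice on both axes.

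Parp14, in the same gene cluster, encodes a large mono-ADP-ribosyltransferase with macrodomains, known as a coactivator of STAT6. It was the lowest of the 7 genes in the controls, at 0.53, 0.49 and 0.45 FPKM, and was at 4.63, 0.77 and 1.61 FPKM in the depleted mice. The groups did not overlap, and the spread among the depleted mice was the widest of the 7 genes, with a coefficient of variation of 86.9% against 8.16% in the controls. The ratio of the means was 4.77, from 0.490 ± 0.040 to 2.34 ± 2.03 FPKM (SD, n = 3 each). The log2 fold change was 0.99 (95% interval 0.16 to 1.83, SE 0.37; limma unadjusted p = 0.0253, adjusted p = 0.418; exact permutation p = 0.1), and 0.53 without A4. In A5 about 20 fragments stood behind the value, with a Poisson interval of 0.465 to 1.18 FPKM that reaches down to the controls.

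Parp12 encodes a mono-ADP-ribosyltransferase with CCCH zinc fingers that binds RNA. It was the most abundant of the interferon-linked genes, at 3.73, 3.08 and 2.70 FPKM in the controls and at 8.95, 3.98 and 5.69 FPKM in the depleted mice. All depleted mice were above all controls, although A5 exceeded A1 by little. The means were 3.17 ± 0.521 and 6.21 ± 2.52 FPKM (SD, n = 3 each), a ratio of 1.96. The log2 fold change was 0.74 (95% interval 0.20 to 1.28, SE 0.24; limma unadjusted p = 0.0132, adjusted p = 0.387; exact permutation p = 0.1), and 0.48 without A4.

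RefSeq promoter windows of 300 bases (GRCm38.p6, 250 before to 50 after the start) were at hand for 4 of the 7 genes, Parp1, Parp2, Parp12 and Dtx3l. They were searched on both strands for GAAA followed after any NN by another GAAA, the core of the interferon-stimulated response element, and for TTCNNNGAA, the palindrome bound by STAT dimers. Of all 32851 windows 3.44% held the first and 8.3% the second. Neither stood in the windows of the 4 genes, which says only that these letters are not in these windows. Among the other family genes, a window of Parp11 held both, overlapping each other, Parp4 held the first and Parp16 the second. Upstream bases without annotated exons are shown for Dtx3l (chr16:35939207-35939277, minus strand, 250 to 180 bases before the start) and Parp12 (chr6:39118350-39118472, minus strand, the last 123 bases before the start), as interferon-linked genes with no match, and for Parp11 (chr6:127446590-127446839, plus strand), as the family gene with both, each 5′ to 3′ with the matches in capitals.
Dtx3l: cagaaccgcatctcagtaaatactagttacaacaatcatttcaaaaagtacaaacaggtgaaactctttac
Parp12: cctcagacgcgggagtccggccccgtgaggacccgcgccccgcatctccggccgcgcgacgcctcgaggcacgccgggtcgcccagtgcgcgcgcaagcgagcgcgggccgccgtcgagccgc
Parp11: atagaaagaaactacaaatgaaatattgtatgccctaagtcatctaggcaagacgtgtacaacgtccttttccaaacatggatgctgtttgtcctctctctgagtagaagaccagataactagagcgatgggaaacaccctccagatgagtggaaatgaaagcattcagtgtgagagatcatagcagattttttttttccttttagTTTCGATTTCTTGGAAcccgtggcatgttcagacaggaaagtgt
The gene with both matches, Parp11, had its highest levels in A5 and A6 and not in A4, and Dtx3l and Parp12 had theirs in A4. Another window of Parp11 held neither match. Whether these letters bear on the levels was not tested.

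Parp10 encodes a mono-ADP-ribosyltransferase found as a partner of MYC. Its levels were 0.97, 0.62 and 1.32 FPKM in the controls and 2.62, 1.08 and 1.03 FPKM in the depleted mice. A5 and A6 lay within the range of the controls, so that only A4 stood above it. The log2 fold change was 0.35 (95% interval -0.23 to 0.93, SE 0.25; limma adjusted p = 0.651; exact permutation p = 0.4), and 0.076 without A4. About 13 fragments stood behind the value in A5, which allows 0.581 to 1.87 FPKM. Plec shares 205 exonic bases with Parp10 on the same strand, 4.8% of the exonic bases of Parp10, so a part of its reads cannot be assigned with certainty.

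Parp1, whose product senses DNA strand breaks, was by far the most abundant gene, at 23.64, 23.69 and 23.23 FPKM in the controls and 20.86, 20.42 and 24.64 FPKM in the depleted mice. A4 and A5 were below the controls and A6 above them. The log2 fold change was -0.099 (95% interval -0.31 to 0.11, SE 0.092; limma adjusted p = 0.723; exact permutation p = 0.4). Parp2, which shares its role in base excision repair, was at 7.37, 9.75 and 9.81 FPKM in the controls and 9.99, 9.83 and 12.03 FPKM in the depleted mice. The groups did not overlap, but A5 exceeded A3 by only 0.02 FPKM, and the 66 fragments in A5 allow 7.61 to 12.5 FPKM. Its log2 fold change was 0.22 (95% interval -0.082 to 0.53, SE 0.13; limma adjusted p = 0.583; exact permutation p = 0.1). Both intervals included 0, so no change of either gene was shown, and changes within the intervals remain possible.

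**Figure D3:**
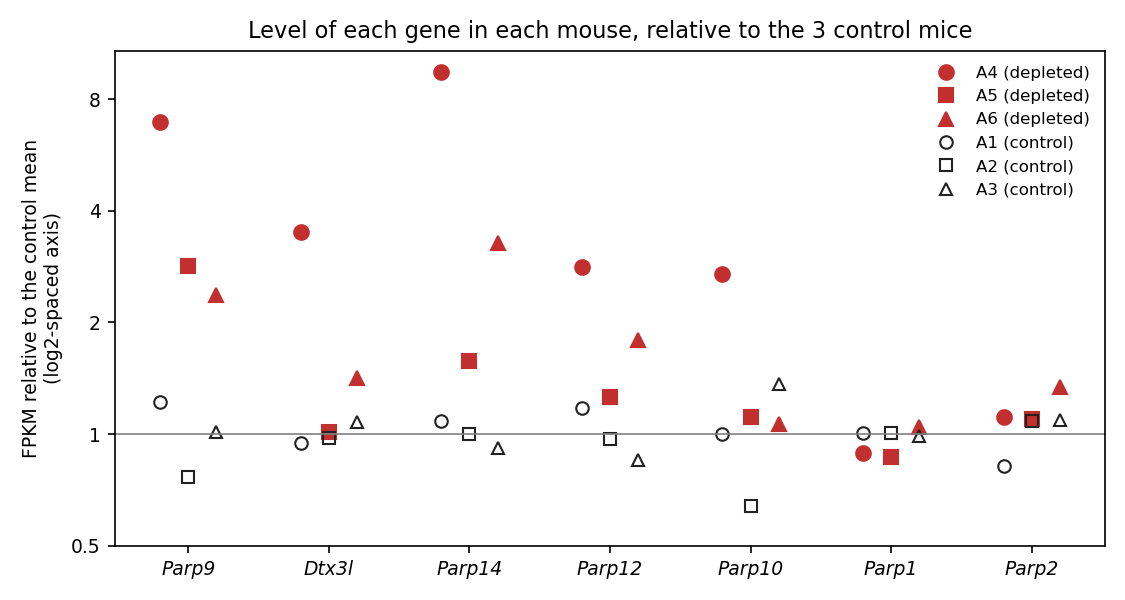
Level of each gene in each mouse divided by the mean of the 3 controls (log2-spaced vertical axis), with filled red symbols for depleted mice and open symbols for controls. A4 is the highest mouse for the 5 interferon-linked genes, at 2.70 to 9.45, and is not for Parp1 and Parp2.

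The order of the levels was Parp1, Parp2, Parp12, Dtx3l, Parp10, Parp9 and Parp14 in the controls, and of these neighbours only Parp10 and Parp9 overlapped between mice. In the depleted mice it was Parp1, Parp2, Parp12, Parp9, Dtx3l, Parp14 and Parp10, with every pair of neighbours from Parp12 downwards overlapping. The summed FPKM of the 5 interferon-linked genes was 7.73, 6.32 and 6.98 in the controls and 27.6, 9.89 and 12.6 in A4, A5 and A6. That of Parp1 and Parp2 was 31.0, 33.4 and 33.0 in the controls and 30.9, 30.3 and 36.7 in the depleted mice. The interferon-linked sum was therefore 0.189 to 0.249 of the constitutive one in the controls, 0.327 in A5, 0.343 in A6 and 0.896 in A4. Within the FPKM of all 16 ADP-ribosyltransferase genes measured here, Parp9, Parp10, Parp12 and Parp14 made up 4.39%, 3.25% and 3.55% in the controls and 13.5%, 5.32% and 6.59% in A4, A5 and A6. These sums describe genes that were chosen with results known, and no test was made of them.

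The 7 genes as a set had 0 calls, where 0.0278% of all genes tested were called. Of them 3 were higher with an unadjusted p under 0.05 in limma, against 4.79% of all genes tested. All depleted mice were above all controls for 4, Parp2 being the fourth, against 8.21% of all genes tested. Without A4 there were again 0 calls, where 0.154% of all genes tested were called, and again 3 interferon-linked genes at an unadjusted p under 0.05 and higher, against 5.95% of all genes. Without A4 the groups of 3 of the 5 interferon-linked genes did not overlap, against 14.5% of all genes. Without A5 0.201% of all genes were called and with array weights 0.139%, and again none of the 7. Without A3, the control with low Xist, the log2 fold changes of Parp9, Dtx3l, Parp14, Parp12 and Parp10 were 1.20, 0.59, 0.97, 0.66 and 0.47.

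The 10 other ADP-ribosyltransferase genes were tested beside these, and none of them passed at an adjusted p of 0.1 or had an unadjusted p under 0.05 in limma. Their median log2 fold change was 0.087 and their range was -0.068 for Parp6 to 0.42 for Zc3hav1. Of the 10, 2 (Tnks and Zc3hav1) had all depleted mice above all controls, against 8.21% of all genes tested. Zc3hav1, the antiviral zinc finger protein ZAP, which lacks catalytic activity, was at 0.77, 0.52 and 0.75 FPKM in the controls and at 2.49, 0.81 and 0.80 FPKM in the depleted mice. A4 alone stood clearly above the controls, and the log2 fold change was 0.11 without it. Parp3, a DNA repair enzyme, showed the same mouse high, at 6.54 FPKM in A4 against 1.91 in A5 and 0.77 in A6 and 1.85 to 2.42 in the controls. Its log2 fold change was 0.078 and turned to -0.50 without A4.

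Parp11, a mono-ADP-ribosyltransferase, had another order of mice, with 5.03, 6.97 and 7.06 FPKM in the depleted mice against 4.84 to 5.39 FPKM in the controls (log2 fold change 0.26, limma adjusted p = 0.537). The tankyrase gene Tnks was at 13.1 FPKM in A4, 9.61 in A5 and 9.69 in A6 against 8.96 to 9.47 in the controls (log2 fold change 0.20). The log2 fold changes of Tnks2, Tiparp, Parp8, Parp4 and Parp16 were 0.042, 0.095, 0.078, -0.068 and 0.19.

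**Figure D4:**
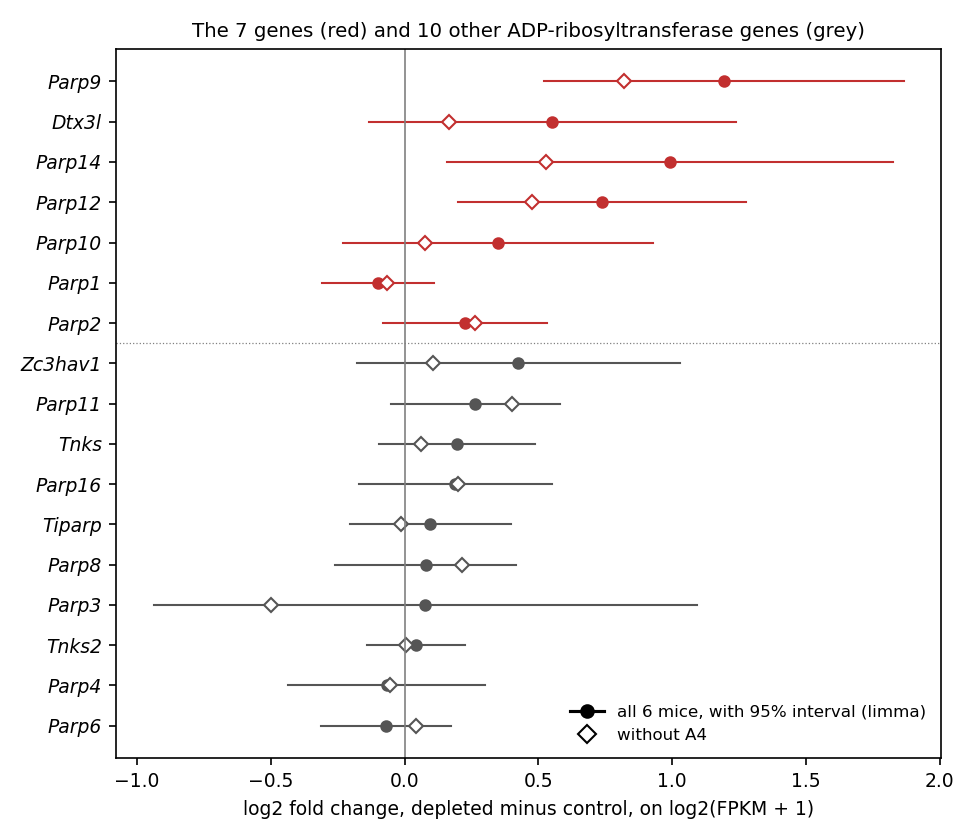
Log2 fold change of depleted minus control mice on log2(FPKM + 1) (horizontal axis) for the 7 genes in red and 10 other ADP-ribosyltransferase genes in grey, as points with limma's 95% interval, and as open diamonds without A4. The intervals of Parp9, Parp14 and Parp12 lie above 0, and those of the 10 other genes include 0.

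The enzymes that remove or read ADP-ribose and the cofactors of the transferases were read as a list of their own. Of 12 tested genes 6 were higher and 6 lower, none had an unadjusted p under 0.05 in limma, and the median log2 fold change was 0.012. The range ran from -0.48 for Macrod1, a hydrolase that removes single ADP-ribose units, to 0.30 for Oard1, which acts on ADP-ribosylated glutamate. Macrod1 was at 7.79 to 8.49 FPKM in the controls and at 5.37, 3.50 and 9.03 FPKM in the depleted mice, so that the groups overlapped. Of 10 tested genes of NAD metabolism 5 were higher and 5 lower. In limma 1 was higher with an unadjusted p under 0.05, against 4.79% of all genes tested, and 0 were lower, against 5.74%. That gene was Nampt, which encodes the rate-limiting enzyme of the NAD+ salvage route, at 14.02, 14.57 and 12.69 FPKM in the controls and at 20.80, 15.71 and 15.73 FPKM in the depleted mice (log2 fold change 0.31, limma unadjusted p = 0.0350, adjusted p = 0.451; 0.18 without A4). All 3 depleted mice were above all controls for Nampt, with A4 highest, and 8.21% of all genes tested were separated in this way. Cd38, an NAD+ glycohydrolase, had the lowest value of the list at -0.28.

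Of the 4 Deltex genes related to Dtx3l, 1 was higher and 3 were lower. Dtx3 was at 92.4, 95.7 and 94.9 FPKM in the controls and at 72.2, 83.4 and 83.2 FPKM in the depleted mice, all below the controls (log2 fold change -0.25, limma unadjusted p = 0.0124, adjusted p = 0.380). Of all genes tested 5.74% were lower with an unadjusted p under 0.05, and 9.38% had all depleted mice below all controls. Dtx4 had the highest log2 fold change of the 4, at 0.16.

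Genes that carry the interferon signal to the nucleus were tested as a list of 8. None passed at an adjusted p of 0.1. In limma 3 (Stat2, Irf9 and Irf7) had an unadjusted p under 0.05 with a higher level, against 4.79% of all genes tested. The same 3 had all depleted mice above all controls, against 8.21% of all genes tested. Irf7 had the highest log2 fold change of the list, 2.12, and 1.30 without A4. It was at 1.82, 0.64 and 0.74 FPKM in the controls and at 25.81, 4.14 and 3.75 FPKM in the depleted mice. Irf9, a DNA-binding factor activated by type I interferon, was at 5.56, 4.56 and 4.90 FPKM in the controls and at 24.95, 7.17 and 7.88 FPKM in the depleted mice (log2 fold change 1.04, limma adjusted p = 0.418; 0.51 without A4). A4 was again the highest mouse. The receptor and kinase genes Ifnar1, Ifnar2, Jak1 and Tyk2 had log2 fold changes of -0.0027, 0.068, -0.022 and 0.057. Irf1, another interferon-induced factor, was at 2.02, 2.56 and 3.56 FPKM in the controls and at 4.95, 1.45 and 1.47 FPKM in the depleted mice. A4 was above every control and A5 and A6 were below every control, so that its log2 fold change of -0.15 became -0.57 without A4. The median of the list was 0.062.

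The 5 interferon-linked genes varied together over the 6 mice, with Pearson's r between 0.754 and 0.975 in their 10 pairs. Without A4, which dominates these points, r ran from 0.016 to 0.947 over 5 mice. With Parp1 the r of the 5 genes was between -0.672 and -0.371, and with Parp2 between 0.12 and 0.372. Among all genes tested, those whose log2 profile was most like the mean profile of the 5 genes over the 6 mice were Ogfr (r = 0.998), Plce1 (0.997), Ifi27l2a, 1810026J23Rik and Dand5 (each 0.996), and Mx2, Ifi204, Gm9899, Irf9 and Oasl2 (each 0.995). Ifi27l2a, Mx2, Ifi204, Irf9 and Oasl2 are known as interferon-induced genes. Oasl2, an antiviral oligoadenylate synthetase-like gene, was at 2.13, 1.24 and 1.54 FPKM in the controls and at 31.35, 4.18 and 4.60 FPKM in the depleted mice. The mice of both groups enter these correlations, which share their libraries and rest on A4, and they are given as a description.

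The genes around the interferon-linked members were measured in the same libraries. Within 250 kb of the Parp9, Dtx3l and Parp14 cluster, 12 other genes were measured and 7 tested, with log2 fold changes from -0.24 to 0.20 and a median of -0.081. The nearest on either side, Hspbap1 and Kpna1, a nuclear import receptor gene, were at 1.39, 1.15 and 1.55 FPKM against 1.30, 1.39 and 0.73 FPKM, and at 31.92, 32.55 and 32.21 FPKM against 37.19, 37.62 and 31.85 FPKM. Their groups overlapped. Around Parp10, 19 genes were tested, from -0.31 to 0.16, and around Parp12, 4 genes, from -0.23 to 0.37. None of these neighbours had an adjusted p under 0.1 in limma. Only 1 of them, Dirc2, had an unadjusted p under 0.05, with a lower level (log2 fold change -0.19), against 5.74% of all genes tested.

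Markers of the cell types of the cortex were read beside the interferon-linked genes. The labelled tissue carried its defining transcripts, with neuronal markers at summed FPKM of 1931 to 2251 in the controls and 1964 to 2127 in the depleted mice. Of 10 microglial markers 6 were higher and 4 lower, with a median log2 fold change of 0.091 (-0.033 without A4), and none had an adjusted p under 0.1 in limma. The list held differences in both directions, with 3 higher and 2 lower at an unadjusted p under 0.05, against 4.79% and 5.74% of all genes tested. Aif1, an actin-binding protein of microglia, was at 5.88 to 6.49 FPKM in the controls and at 14.32, 7.34 and 12.75 FPKM in the depleted mice, in the order of mice seen for Dtx3l, Parp14 and Parp12. Fcrls was at 8.19 to 13.3 FPKM in the controls and at 3.83, 5.05 and 7.91 FPKM in the depleted mice, and P2ry12, a purine receptor of resting microglia, at 8.50 to 10.24 and at 7.18, 6.45 and 7.91 FPKM. Both were below every control in every depleted mouse, as were 9.38% of all genes tested. The summed level of the 10 microglial markers in A4, 150.9 FPKM, was 1.05 times that of A6 and 1.31 times that of A5. The sum of the 5 interferon-linked genes in A4 was 2.20 and 2.79 times those of A6 and A5. Summed monocyte and border macrophage markers were 5.97 to 7.63 FPKM in the controls and 4.68 to 7.19 FPKM in the depleted mice. Within this list Ly6c2, a surface antigen of inflammatory monocytes, was at 0.18, 0.46 and 0.15 FPKM in the controls and at 1.73, 0.39 and 0.88 FPKM in the depleted mice, again in the order of Dtx3l, Parp14 and Parp12 (log2 fold change 0.62), and Pf4 had the lowest log2 fold change, at -0.85. T cell markers summed to 2.67 to 3.29 and 2.16 to 3.78 FPKM, mostly from Cd4. The defining gene Cd3d was at 1.08 FPKM in A4 and at 0.13 or less in the other mice, and Cd3g was at 0.42 in A4. Cd3e was listed at 0 in A4, A5 and A6. In the other direction, Cd8a was at 0.02 FPKM in A4 against 0.09 to 0.16 in the controls. Cd4 was at 2.26 FPKM in A4, below every control. Only Cd4 of these T cell genes reached the minimum mean for testing. Astrocyte markers summed to 312 to 376 FPKM in the controls and 362 to 542 FPKM in the depleted mice, and Gfap, the intermediate filament of reactive astrocytes, was at 300.31 FPKM in A4 against 108.51 and 120.13 in A5 and A6 and 64.5 to 88.3 in the controls. Gfap was the 1 higher gene of the 5, and the other 4 were lower, with a list median of -0.12. Among them Gja1, a gap junction gene, was at 61.87 to 74.58 FPKM in the controls and at 57.9 to 61.48 FPKM in the depleted mice. Oligodendrocyte markers were lower in each depleted mouse (2289 to 2332 against 2589 to 2830 FPKM), and choroid plexus markers, mainly Ttr, were at 44.2 to 68.5 against 165 to 321 FPKM. Endothelial markers summed to 17.0 to 19.1 FPKM in the controls and 19.5 to 22.6 FPKM in the depleted mice. No marker with a row in the table was at 0 in every mouse. The part of these cell types, of the Y-linked reads of A4 and of the depth of A5 in the levels of Parp9, Dtx3l, Parp14, Parp12 and Parp10 was not tested.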

How the data were processed

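Cortical RNA of 3 control and 3 depleted mice was compared, grouped by the labels. From paired reads of 75 bp off poly(A) libraries, aligned by TopHat, the authors estimated known transcripts with RSEM; the submitters' processing notes name mm9 and DESeq. The deposited values are FPKM with 2 decimals, to which the authors had applied TMM factors. All 6 columns were used.

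Genes averaging 0.5 FPKM or more were tested on log2(FPKM + 1) by limma (version 3.58.1, under R 4.3.3; a linear fit, then eBayes using its trend option and no covariate), with Benjamini-Hochberg adjustment over 14385 genes and the study's threshold of 0.1. The fit was tested on simulated data. Single values were compared by exact two-sided permutation (scipy 1.17.1, Python 3.11.15). Fragments were estimated from the steps of low FPKM values in 1813 single-transcript genes of 400 to 1500 bases, with GENCODE M21 lengths (GRCm38, a later build than that of the values), and carry that uncertainty. Genes beside a member were ordered by RefSeq annotation of GRCm38.p6.

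Named were every member, every other family gene, the extremes of each list and any gene with an adjusted p under 0.1. Irf9, the nearest neighbours of the Parp9 cluster and the 10 genes most like the members in profile were named too. Dirc2, Oasl2, Gfap, Gja1, P2ry12, Ifnar1, Ifnar2, Jak1, Tyk2, Stat2, Cd3d, Cd3g, Cd3e, Cd8a, Cd4 and Ttr were added after their values were seen. The members and lists were chosen with earlier results of these data known. 1 gene of the lists is not reported here. Alternatives were another pseudocount, other filters, other scalings, eBayes without trend, array weights and leaving out each mouse.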

Additional observations from a re-analysis of the deposited data

How the results depend on the processing

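None of the 7 genes passed the threshold under any of the 14 alternatives, and none of their log2 fold changes turned sign; leaving out each mouse in turn gave 0.82 to 1.42 for Parp9, 0.17 to 0.82 for Dtx3l, 0.53 to 1.36 for Parp14, 0.48 to 0.98 for Parp12, 0.076 to 0.49 for Parp10, -0.18 to -0.051 for Parp1 and 0.10 to 0.29 for Parp2. Without A4 the value was over 1.5 times smaller for Dtx3l, Parp14, Parp12 and Parp10. With a pseudocount of 0.1 the values of Parp9, Parp14 and Parp10 were 1.77, 1.70 and 0.58. The number of all genes past the threshold, 4, was 20 with array weights and 2 with eBayes without trend, and 2 to 29 when leaving out each mouse (2 without A1, 22 without A4, 29 without A5 and 8 without A6); the cause was not tested. The estimated 3.54 M fragments of A5 limit its values for the interferon-linked genes to 13 to 46 fragments each. No paired analysis was possible because the groups share no replicate number.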
